A study of Homo sapiens with 40 samples.

Results

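Immediate early transcription factor mRNAs were followed across all 40 RNA-Seq libraries of the series. The members were EGR1, FOS, JUN, JUNB, JUND, IER2, IER3, ATF3 and MYC, 9 of the 55765 gene symbols in the deposited count files. They were chosen by symbol as short-lived mRNAs that depend on deadenylation, with their response to CNOT1 siRNA already known: EGR1 had been seen to be higher, and JUND to be less polysomal. Values from the CNOT1 siRNA contrasts therefore describe the members and carry no test. All 9 mRNAs passed the filter on low counts in each of the 3 experiments.

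Immediate early genes are transcribed within minutes of a growth factor, serum or stress signal, without new protein synthesis. Their mRNAs are usually removed again within the hour, in many cases through AU-rich elements in the 3′UTR that recruit the Ccr4-Not deadenylase, whose scaffold is CNOT1. FOS, JUN, JUNB and JUND pair through leucine zippers to form the AP-1 transcription factor, ATF3 is a stress-induced partner of the same zipper class, EGR1 is a zinc finger factor downstream of serum response factor, and MYC drives growth genes as a dimer with MAX. IER2 is a nuclear regulator of transcription, and IER3 is a small membrane-associated protein that affects survival and ERK signalling. JUND is the member of the JUN family whose expression is usually the most constitutive.

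All libraries came from HEK293, an established human embryonic kidney cell line, and no added stimulus is named in the labels. In the RNA immunoprecipitation (RIP) experiment, cells without siRNA gave RNA bound to endogenous eIF4A1, eIF4A2 or DDX6 (eIF4A1 IP, eIF4A2 IP, DDX6 IP) and RIP total RNA, with 3 libraries in each of these 4 groups. In the gradient experiment, cells received control siRNA or CNOT1 siRNA and were lysed with cycloheximide, and 6 groups of 4 libraries came from the input, from fractions 1 to 5 (subpolysomal RNA) and from fractions 6 to 11 (polysomal RNA). In the TNRC6 experiment, total RNA came from cells with control siRNA or with combined knockdown of TNRC6A and TNRC6B (TNRC6A/B siRNA), 2 libraries each. Their products belong to the GW182 family, through which Argonaute recruits Ccr4-Not. A knockdown lowers its target without removing it. No library of an IgG control IP was analysed here. The sources used here do not say whether replicates were separate cultures, so that p-values measure only the spread between these libraries.

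Levels are CPM, counts scaled to a common depth, on library totals adjusted by TMM factors within each experiment. The 3 experiments were normalised separately, so levels set side by side across them are not tested. Libraries held 15.4 to 46 M counts, and without molecular identifiers these counts are not independent molecules. In such bulk RNA, fewer cells with an mRNA and less mRNA per cell cannot be told apart. CNOT1 mRNA was at 628 to 711 CPM in control inputs and 36.8 to 41.4 in CNOT1 siRNA inputs, without overlap. TNRC6A was at 178 and 189 CPM with control siRNA and 40.5 and 64.7 with TNRC6A/B siRNA, and TNRC6B at 67.6 and 73.1 against 17.7 and 26.3, also without overlap. Both polysomal libraries labelled replicate 3 went against their labels, with CNOT1 at 28.3 CPM for control siRNA (others 470 to 501) and at 631 CPM for CNOT1 siRNA (others 24 to 31.6). The labels were kept. Tests and shifts of the members that use polysomal RNA are given with and without these libraries. Other polysomal values include both libraries unless stated otherwise. Of the 6 HEK293 markers, LIN28B, NEFL, NEFM, VIM and HOXA9 were present in every library while PAX2 was near 0 (0.0984 to 1.57 CPM), and PTPRC, ALB, MYOD1, GFAP and DCN stayed at or below 1.7 CPM.

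The members differ in the AU-rich motifs of their 3′UTRs. The pentamer ATTTA was in the annotated 3′UTR of 8 of 9 members, as in 69.3% of 13827 genes with a matched coding transcript. TATTTAT, which contains ATTTA, was in 6 of 9 members against 33.2% of genes, and 5 of 9 members held 3 or more ATTTA against 43.4% of genes. Both motifs were counted on the mRNA strand only. IER3 and MYC held 6 ATTTA each, FOS 5, JUN and ATF3 3 each, JUNB 2, EGR1 and JUND 1 each, and IER2 none. A window of 30 bases is shown for each of 4 mRNAs that represent the overlapping repeat of FOS, the spaced repeats of IER3 and the lone motifs of EGR1 and JUND, with ATTTA in capitals (5′ to 3′, mRNA strand, hg19). They lie in the 3′UTR of each gene, at chr14:75748761-75748790 (+) for FOS, chr6:30711424-30711453 (-) for IER3, chr5:137804753-137804782 (+) for EGR1 and chr19:18390807-18390836 (-) for JUND.
FOS: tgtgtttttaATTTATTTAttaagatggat
IER3: aattaatATTTAtatgtATTTAtgtacgtc
EGR1: ctgaaaatgtaaATTTAtaaatatattcag
JUND: cgattctgccctATTTAtgtttctactcgg

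JUND stood apart at the other end of the mRNA. Its 5′UTR of 138 nt had a GC content of 89.9%, at percentile 99.5 of the matched genes (median 66.2%), and its 3′UTR was at 61.6% GC (percentile 94.7). The genes lie at chr5:137801168-137804992 (EGR1), chr14:75745529-75748933 (FOS), chr1:59242517-59249720 (JUN), chr19:12902300-12904129 (JUNB), chr19:18390504-18392432 (JUND), chr19:13261225-13265725 (IER2), chr6:30710976-30712325 (IER3) and chr1:212738676-212794119 (ATF3), and MYC is on chromosome 8. JUN, JUNB, JUND and IER2 are annotated with 1 exon in the transcript used, whereas EGR1 and IER3 have 2 and FOS and ATF3 have 4. IER2 had a 5′UTR of 1212 nt (percentile 98.6), JUN one of 911 nt (percentile 97.2) and IER3 one of 29 nt (percentile 10.9). On the opposite strand, JUNB overlaps HOOK2, IER3 overlaps HCG20 and IER3-AS1, ATF3 overlaps RN7SL512P, MYC overlaps CASC11 and IER2 overlaps unnamed genes. As the strand option of the counting was not given in the sources used here, a share of the counts of these 5 members could belong to those genes.

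Per kilobase of annotated exon, MYC and JUN were the most abundant members in control cells. In control siRNA input, MYC was at 177 ± 14.8 CPM per kb (SD, n = 4), JUN at 47.6 ± 10.1, ATF3 at 15.2 ± 0.608, IER2 at 9.02 ± 1.27 and JUND at 7.65 ± 0.76. IER3 at 2.14 ± 0.412, EGR1 at 1.77 ± 0.54 and JUNB at 1.61 ± 0.395 were neighbours whose intervals of mean ± SD overlapped, and FOS was lowest at 0.559 ± 0.0906. The intervals of IER2 and JUND also overlapped, whereas those of the other neighbours in this order did not. RIP total RNA of cells without siRNA gave MYC at 155 ± 26.6 CPM per kb (n = 3) and JUN at 89.3 ± 15.9 at the top, and EGR1 at 0.605 ± 0.118 and FOS at 0.21 ± 0.0326 at the bottom. FOS rested on 17 to 30 counts per library of RIP total RNA, which limits its precision.

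The RIP experiment asked which mRNAs were bound by each DEAD-box protein, and the members were divided between enriched and not enriched. JUND, the growth-restraining AP-1 subunit, was the most enriched, and rose in all 3 IPs. FOS also rose in all 3, EGR1 and IER2 in the eIF4A1 and eIF4A2 IPs, ATF3 in the eIF4A1 IP and IER3 in the DDX6 IP. JUN, JUNB and MYC passed the test in none. With the replicate number as a block, JUNB was lower in the eIF4A2 and DDX6 IPs. By the edgeR quasi-likelihood test with Benjamini-Hochberg adjustment over 17474 genes (FDR below 0.05), the eIF4A1 IP had 5 of 9 members higher and 0 lower, where 26.1% of all genes were higher and 26.5% lower. The eIF4A2 IP gave 4 higher and 0 lower (24.5% and 25.8% of all genes), and the DDX6 IP 3 higher and 0 lower (22.7% and 23.3%). Under the block 6, 6 and 7 of 9 members were called in either direction in the eIF4A1, eIF4A2 and DDX6 IPs. Over all genes, 11265, 10901 and 10487 of 17474 were called under the block. The median log2 difference of the members was 0.53, 0.25 and 0.40 in the eIF4A1, eIF4A2 and DDX6 IPs, beside 0.04, 0.01 and 0.01 over all genes. The 3 IPs are set against the same total RNA, so these values are not independent of one another.

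**Figure D1:**
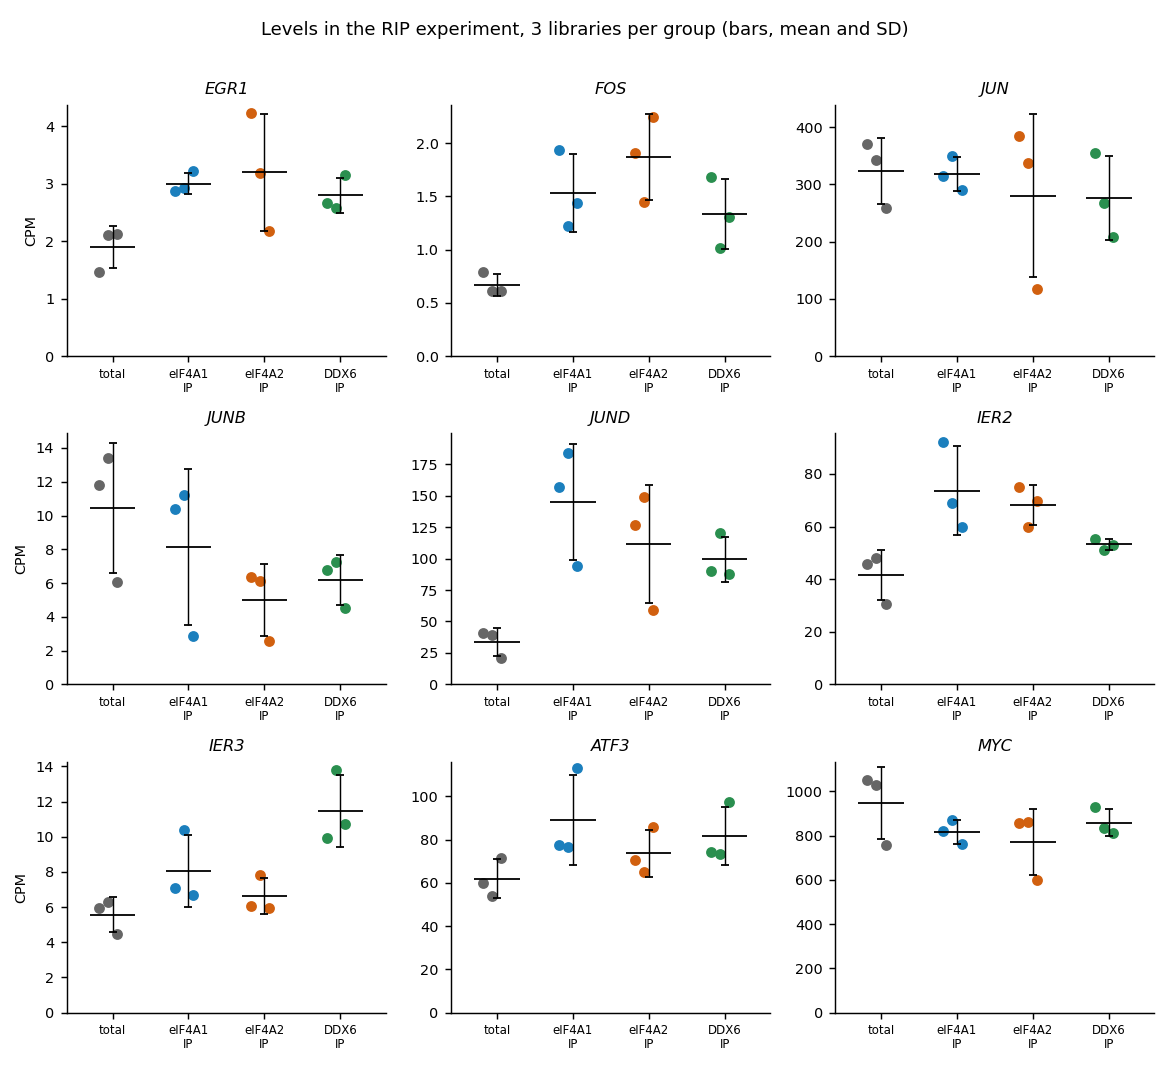
Level of each member in the RIP experiment (y axes, CPM) for total RNA and each IP (x axes), with 1 point per library and bars for the mean and SD of 3 libraries. The JUND libraries of each IP, at 59 CPM or more, lie above the total RNA libraries, at 41.1 CPM or less, while JUN and MYC overlap.

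JUND was at 41.1, 39.6 and 20.9 CPM in total RNA. It was at 157, 184 and 94.4 CPM in the eIF4A1 IP, at 127, 149 and 59 in the eIF4A2 IP and at 90.4, 120 and 87.9 in the DDX6 IP. Every IP library was above every total library, and replicate 3 was the lowest in each group. The log2 differences were 2.10 (SE 0.35, FDR 0.000265), 1.72 (SE 0.35, FDR 0.00108) and 1.55 (SE 0.35, FDR 0.00263), or 4.28-fold, 3.29-fold and 2.93-fold. Each of these calls held without any 1 library, with log2 differences of 1.84 to 2.33, 1.46 to 2.03 and 1.30 to 1.72.

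FOS, the partner of the JUN proteins in AP-1, was at 0.789, 0.608 and 0.61 CPM in total RNA. It reached 1.94, 1.22 and 1.44 CPM in the eIF4A1 IP, 1.91, 1.45 and 2.25 in the eIF4A2 IP and 1.68, 1.02 and 1.31 in the DDX6 IP. No IP library overlapped the totals, although all levels were low. FOS rose by 1.18 (SE 0.27, FDR 0.00282), 1.48 (SE 0.27, FDR 0.000599) and 0.99 (SE 0.28, FDR 0.0104) on the log2 scale, and each call held without any 1 library.

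JUN and JUNB, the other JUN subunits, did not pass the test in any IP. JUN ran from 259 to 370 CPM in total RNA, 290 to 349 in the eIF4A1 IP, 118 to 385 in the eIF4A2 IP and 208 to 354 in the DDX6 IP. These ranges overlap, and the log2 differences of JUN were -0.03 (FDR 0.953), -0.21 (FDR 0.627) and -0.23 (FDR 0.597). JUNB was at 11.8, 13.4 and 6.07 CPM in total RNA, at 10.4, 11.2 and 2.85 in the eIF4A1 IP, at 6.34, 6.12 and 2.56 in the eIF4A2 IP and at 6.75, 7.27 and 4.51 in the DDX6 IP. Replicate 3 was the lowest JUNB library in each group, and the groups overlap. The log2 differences of JUNB were -0.35 (FDR 0.529), -1.07 (SE 0.46, FDR 0.0692) and -0.76 (FDR 0.188). With the replicate number as a block, JUNB was lower in the eIF4A2 IP (-1.08, FDR 0.000383) and in the DDX6 IP (-0.70, FDR 0.00758), and DESeq2 without the block gave FDR 0.0361 in the eIF4A2 IP.

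ATF3, the stress-induced repressor, was at 60.1, 53.7 and 71.5 CPM in total RNA and at 77.6, 76.7 and 113 in the eIF4A1 IP. The eIF4A1 IP libraries were above all totals, and ATF3 rose by 0.53 on the log2 scale (SE 0.19, FDR 0.0301). This call was lost without total RNA replicate 1 (FDR 0.0809), total RNA replicate 2 (FDR 0.111) or eIF4A1 IP replicate 3 (FDR 0.148). In the eIF4A2 IP ATF3 ran from 64.8 to 85.7 CPM (log2 difference 0.25, FDR 0.275) and in the DDX6 IP from 73.5 to 97.2 (0.40, FDR 0.0949). Under the block both passed, at FDR 0.0276 and 0.00215.

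EGR1 was at 1.47, 2.1 and 2.12 CPM in total RNA. It was at 2.87, 2.92 and 3.22 CPM in the eIF4A1 IP, 4.23, 3.18 and 2.18 in the eIF4A2 IP and 2.67, 2.58 and 3.15 in the DDX6 IP. Each IP library was above each total, by a narrow margin for eIF4A2 IP replicate 3. The log2 difference was 0.67 in the eIF4A1 IP (SE 0.24, FDR 0.0292), 0.75 in the eIF4A2 IP (FDR 0.0182) and 0.57 in the DDX6 IP (SE 0.24, FDR 0.0637), and the last passed under the block (0.58, FDR 0.0479). Leaving out 1 library ended the eIF4A1 call without total RNA replicate 1 (FDR 0.126), eIF4A1 IP replicate 2 (FDR 0.0545) or eIF4A1 IP replicate 3 (FDR 0.0688), and the eIF4A2 call without total RNA replicate 1 (FDR 0.0869) or eIF4A2 IP replicate 1 (FDR 0.0989).

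MYC, by far the most abundant member, was at 1050, 1030 and 759 CPM in total RNA and between 600 and 929 CPM in the 9 IP libraries. Its log2 differences were -0.21 (FDR 0.334), -0.29 (FDR 0.188) and -0.14 (FDR 0.545) in the eIF4A1, eIF4A2 and DDX6 IPs, with overlapping libraries in each.

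IER2 passed the test in the eIF4A1 and eIF4A2 IPs and IER3 in the DDX6 IP, and under the block IER2 also passed in the DDX6 IP and IER3 in the eIF4A1 IP. In the direct test between the DDX6 and eIF4A1 IPs without the block, IER2 had FDR 0.301 and IER3 FDR 0.306. IER2 was at 45.7, 48.1 and 30.6 CPM in total RNA, at 92.3, 68.9 and 59.7 in the eIF4A1 IP and at 74.9, 59.8 and 69.6 in the eIF4A2 IP. These IP libraries were all above the totals, with log2 differences of 0.83 (SE 0.19, FDR 0.00269) and 0.71 (FDR 0.00683) that held without any 1 library. The DDX6 IP at 55.3, 51.1 and 53.1 CPM was also above the totals, by 0.36 (FDR 0.14, and 0.37 with FDR 0.0435 under the block). IER3 was at 5.95, 6.29 and 4.45 CPM in total RNA and at 9.91, 13.8 and 10.7 in the DDX6 IP, a rise of 1.04 on the log2 scale (SE 0.21, FDR 0.00152) that held without any 1 library. Its eIF4A1 IP libraries, at 7.08, 10.4 and 6.67 CPM, also lay above the totals (0.53, FDR 0.0508, and 0.51 with FDR 0.00303 under the block), whereas the eIF4A2 IP at 6.07, 7.82 and 5.97 overlapped them (0.25, FDR 0.357).

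Same-numbered RIP libraries deviated together, and with the number as a block the DDX6 IP gave 6 members higher and 1 lower in place of 3 and 0, while the genes called among all 17474 went from 8044 to 10487. The number of RIP total RNA replicate 3 differs between its labels, and without this library, an alternative chosen after seeing the data, the block no longer called ATF3 in the eIF4A2 IP (FDR 0.0885) or EGR1 and IER2 in the DDX6 IP (FDR 0.0551 and 0.244), and it called MYC lower in the eIF4A2 IP (-0.36, FDR 0.0378). The summed level of the 6 HEK293 markers was lower in the IPs (1040 to 1750 CPM in the eIF4A1, 574 to 1830 in the eIF4A2 and 1180 to 2570 in the DDX6 IP) than in total RNA (4970 to 6930 CPM). The sum weighs NEFM and NEFL most, with medians of 2870 and 723 CPM over all 40 libraries. LIN28B stayed at 126 to 267 CPM across them. The summed markers of other cell types were at 1.24 to 2.13 CPM in the IPs and 0.942 to 1.33 CPM in total RNA, with PTPRC at 0 in 30 of the 40 libraries of the series. Their part in the members' enrichment was not tested.

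**Figure D2:**
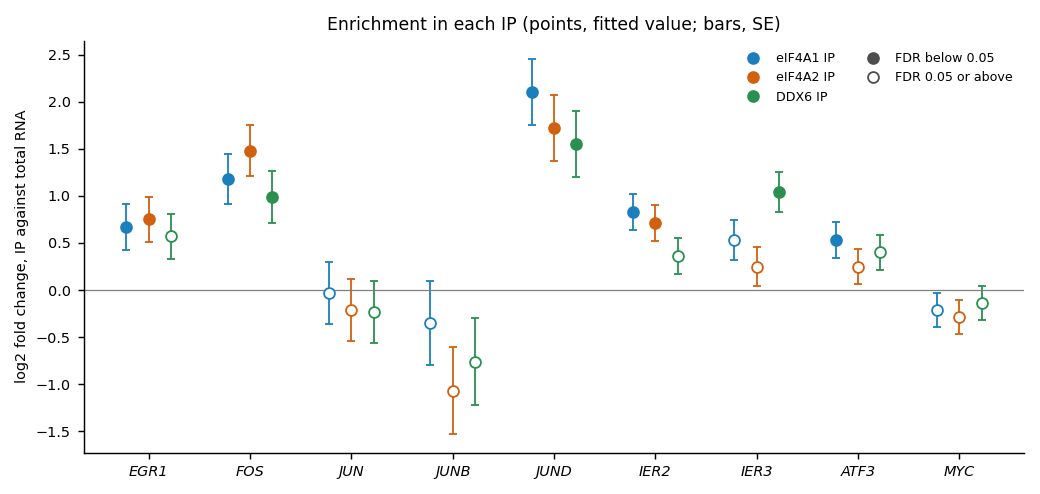
Log2 fold change of each member in each IP against RIP total RNA (y axis), with points for the fitted value and bars for the SE, filled where the FDR was below 0.05. JUND has the highest value in each IP, from 2.10 in the eIF4A1 to 1.55 in the DDX6 IP, and MYC, JUN and JUNB lie below 0.

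Comparison of the IPs with each other separated few members. IER3 was lower in the eIF4A2 IP than in the DDX6 IP, by 0.80 on the log2 scale (SE 0.21, FDR 0.0195), as 1 of 9 members lower where 11.3% of all genes were lower and 9.82% higher. The IER3 libraries of these IPs do not overlap (5.97 to 7.82 against 9.91 to 13.8 CPM), but the call was lost without eIF4A2 IP replicate 1 (FDR 0.0765), eIF4A2 IP replicate 3 (FDR 0.0618) or DDX6 IP replicate 2 (FDR 0.0896). Under the block FOS was also called, higher in the eIF4A2 IP (0.51, FDR 0.0347). Between the eIF4A2 and eIF4A1 IPs edgeR called 0 of 9 members (0.973% of all genes were higher and 0.0858% lower), with 0 at an unadjusted p below 0.05, 0 by DESeq2 and 1 under the block (JUNB at -0.64, FDR 0.0449). For JUND this difference was -0.38 (SE 0.34, FDR 0.581), and for FOS it was 0.29 (SE 0.25, FDR 0.555). Between the DDX6 and eIF4A1 IPs edgeR called 0 members (0.0801% of all genes were higher and 0.0114% lower), 2 were at an unadjusted p below 0.05, DESeq2 called 0, and the block called 1, IER3, at 0.53 (FDR 0.0206). Over all genes the block took the calls from 185 to 2766 in the first of these and from 16 to 1730 in the second.

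The control siRNA gradients showed where the members sit between subpolysomal and polysomal RNA. MYC was polysomal, and without the conflicting library of replicate 3, EGR1, FOS and IER3 were subpolysomal. With all libraries, edgeR called MYC higher in polysomal RNA and none lower among 8 tested members (34.8% of all genes were higher and 37% lower). Without both polysomal libraries labelled replicate 3, 1 was higher and 3 were lower (33.7% and 38.4% of 17115 genes). The count lower among the 8 tested members is near the share of all genes. JUND was not tested here, since its choice used these libraries. EGR1 was chosen with its rise over control siRNA libraries known. The test of EGR1 here may not be independent of that choice, and EGR1 is among the 3 lower.

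MYC was at 1350, 1220, 2190 and 991 CPM in polysomal and at 848, 871, 901 and 953 CPM in subpolysomal RNA. The polysomal libraries were all above the subpolysomal ones, replicate 4 by the smallest margin. The log2 difference was 0.68 (SE 0.19, FDR 0.00233), and 0.42 (SE 0.12, FDR 0.00436) without the conflicting libraries.

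EGR1 was at 3.7, 4.15 and 6.1 CPM in polysomal replicates 1, 2 and 4, at 127 CPM in the polysomal library labelled replicate 3, and at 10.9, 11.1, 14.6 and 16.2 CPM in subpolysomal RNA. The first 3 lie below all subpolysomal libraries and the fourth far above them. The log2 difference was accordingly 1.43 (SE 0.85, FDR 0.134) with all libraries and -1.48 (SE 0.64, FDR 0.0431) without the conflicting ones. FOS had polysomal levels of 1.77, 1.2 and 1.76 CPM in replicates 1, 2 and 4 and of 17.8 in the library labelled replicate 3, beside 3.37 to 5.45 in subpolysomal RNA. Its difference was 0.42 (FDR 0.563) with and -1.40 (SE 0.49, FDR 0.0133) without those libraries. IER3 followed the same pattern, with 3.78, 3 and 2.54 CPM in polysomal replicates 1, 2 and 4 against 5.85 to 11.1 CPM in subpolysomal RNA, and 13 CPM in the library labelled replicate 3. The difference was -0.53 (FDR 0.227) with and -1.36 (SE 0.24, FDR 2.81e-05) without the conflicting libraries.

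The remaining members did not separate by fraction beyond their spread in control cells. JUNB was at 5.63, 3.13, 8.86 and 2.15 CPM in polysomal and 1.47, 0.863, 3.54 and 3.69 CPM in subpolysomal RNA, with replicate 4 reversed (log2 difference 1.09, FDR 0.0602, and 0.68, FDR 0.211, without the conflicting libraries). The log2 differences of JUN, IER2 and ATF3 were 0.19, 0.01 and 0.35 with all libraries and -0.19, -0.23 and 0.12 without, and none passed the test. JUND was at 21.5, 19.2, 22.9 and 22 CPM in polysomal and 16.8, 22.1, 34.2 and 31.6 CPM in subpolysomal RNA, which overlap (log2 difference -0.29, SE 0.18).

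CNOT1 siRNA tested the dependence on Ccr4-Not, and the members are described here without a test, since this response chose them. In input RNA all 9 mean levels were higher with CNOT1 siRNA, and for 6 of 9 members (EGR1, FOS, JUNB, JUND, IER3 and MYC) every CNOT1 siRNA library was above every control library. Such separation upward was seen in 24.9% of all genes. The median log2 difference of the members was 0.92, beside -0.03 over all genes. Same-numbered control and CNOT1 siRNA libraries deviated together in input and in subpolysomal RNA, and within numbers 8 of 9 members, all but ATF3, were higher at each of the 4 numbers in input (32.9% of all genes), and EGR1, JUN, JUNB and JUND in subpolysomal RNA (26.9%). In subpolysomal RNA 3 of 9 members separated upward (EGR1, JUN and JUND, against 11.5% of all genes). In polysomal RNA 0 of 9 did with all libraries (0.262% of all genes), and 4 of 9 (EGR1, FOS, IER3 and MYC) without the conflicting ones (25.4%). None separated downward in any of these fractions, as 25.7%, 15.8% and 0.34% of all genes did in input, subpolysomal and polysomal RNA, and 21.7% in polysomal RNA without the conflicting libraries.

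EGR1 had the greatest difference. Its input level was 5.33, 4.16, 7.98 and 4.69 CPM with control siRNA and 26.3, 12.7, 109 and 21 CPM with CNOT1 siRNA, without overlap and with replicate 3 far above the others. The log2 difference was 2.93 (SE 0.89), or 7.62-fold, and 1.85 (SE 0.85), or 3.61-fold, without CNOT1 siRNA input replicate 3. In subpolysomal RNA EGR1 was at 29.5, 17.2, 113 and 26.5 CPM with CNOT1 siRNA, all above the control libraries, at a log2 difference of 1.82 that became 0.89 without its replicate 3. In polysomal RNA it was at 31.8, 16.7 and 20.2 CPM in CNOT1 siRNA replicates 1, 2 and 4, and at 7.58 CPM in the library labelled replicate 3. The polysomal log2 difference was -0.89 with all libraries and 2.30 (SE 0.67) without the conflicting ones. Per kb, EGR1 was the seventh of the members in control input and the fourth in CNOT1 siRNA input, at 13.5 ± 14.3 CPM per kb, but the sixth, at 6.38 ± 2.19 CPM per kb (n = 3), without replicate 3.

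FOS input was at 1.47, 1.61, 2.09 and 1.95 CPM with control siRNA and at 5.69, 3.24, 16.1 and 3.74 CPM with CNOT1 siRNA. All CNOT1 siRNA libraries were above all controls, again with replicate 3 highest. The log2 difference was 2.01 (SE 0.65), and 1.24 without CNOT1 siRNA input replicate 3. In subpolysomal RNA FOS overlapped (3.37 to 5.45 against 4.04 to 12 CPM, log2 difference 0.66), and in polysomal RNA the difference was -0.67 with all libraries and 1.44 without the conflicting ones.

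IER3 input was at 2.79, 2.15, 3.19 and 3.42 CPM with control siRNA and at 8.11, 6.84, 10.1 and 6.76 CPM with CNOT1 siRNA, a separation of all libraries that did not rest on 1 library (log2 difference 1.46, and 1.32 to 1.55 leaving out 1 library). In subpolysomal RNA IER3 was at 5.85 to 11.1 CPM and 7.71 to 10.3 CPM, which overlap. In polysomal replicates 1, 2 and 4 it was at 3.78, 3 and 2.54 CPM with control siRNA and at 12.3, 6.81 and 8.03 CPM with CNOT1 siRNA (log2 difference 1.54, and 0.43 with all libraries). The libraries labelled replicate 3 had the opposite order, at 13 and 3.02 CPM.

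JUN and JUNB were higher by 0.92 and 1.27 on the log2 scale in input. JUN was at 211, 175, 181 and 123 CPM with control siRNA and at 416, 309, 378 and 206 CPM with CNOT1 siRNA, and only CNOT1 siRNA replicate 4 reached into the control range. JUNB was at 3.59, 2.12, 3.5 and 2.54 CPM and 8.59, 6.33, 8.18 and 5.24 CPM, without overlap. In subpolysomal RNA JUN was at 180 to 209 CPM with control siRNA and at 263 to 368 CPM with CNOT1 siRNA, without overlap (log2 difference 0.70). JUNB overlapped between the groups (0.94), but its log2 ratio within each number was 0.96, 1.12, 0.75 and 0.64. In polysomal RNA both overlapped, with differences of 0.33 for JUN and 0.49 for JUNB with all libraries and 0.90 and 1.22 without the conflicting ones.

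MYC input was at 1140, 1090, 1150 and 953 CPM with control siRNA and 1970, 1750, 1800 and 1510 CPM with CNOT1 siRNA, a separation of all libraries (log2 difference 0.70, SE 0.19). Its subpolysomal level was 848 to 953 CPM and 915 to 1100 CPM, with 1 CNOT1 siRNA library, replicate 4, inside the control range. In polysomal replicates 1, 2 and 4 MYC was at 1350, 1220 and 991 CPM and at 2430, 2140 and 1650 CPM (0.81, and 0.37 with all libraries).

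IER2 and ATF3 differed least. IER2 input was at 23.1 to 32.3 CPM with control siRNA and at 25.5 to 47.1 CPM with CNOT1 siRNA (log2 difference 0.32), with log2 ratios of 0.31, 0.14, 0.54 and 0.15 within the numbers. ATF3 input was at 58.2 to 64 CPM with control siRNA and at 68.8, 51.1, 106 and 56.8 CPM with CNOT1 siRNA (0.22, and -0.05 without CNOT1 siRNA replicate 3). Both overlapped between siRNAs in each fraction.

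**Figure D3:**
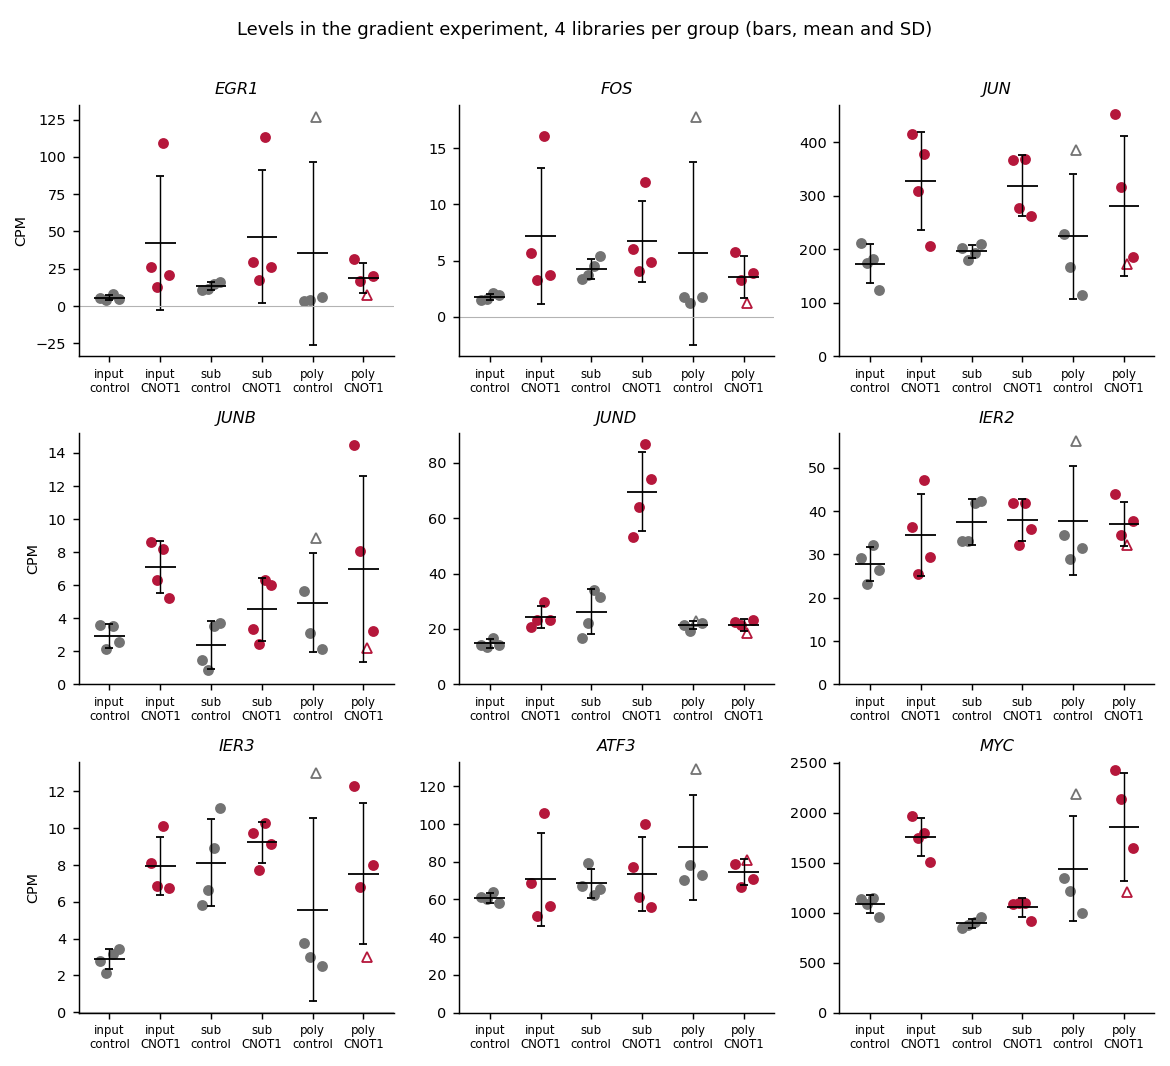
Level of each member in the gradient experiment (y axes, CPM) for input, subpolysomal (sub) and polysomal (poly) RNA with control siRNA (grey) or CNOT1 siRNA (red), with 1 symbol per library, bars for the mean and SD of 4, and open triangles for both polysomal libraries labelled replicate 3. JUND with CNOT1 siRNA is at 53.2 CPM or more in subpolysomal RNA and at 23.3 CPM or less in polysomal RNA, while EGR1 has libraries above 100 CPM in 3 groups.

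JUND differed from the other members in where its mRNA was found. Input JUND was at 14.3, 13.6, 16.9 and 14.2 CPM with control siRNA and 20.7, 23.3, 29.8 and 23.1 CPM with CNOT1 siRNA, without overlap (log2 difference 0.72, SE 0.18). In subpolysomal RNA it was at 16.8, 22.1, 34.2 and 31.6 CPM with control siRNA and at 53.2, 64.1, 86.9 and 74.2 CPM with CNOT1 siRNA, again without overlap (1.41, SE 0.18, or 2.66-fold). In polysomal RNA it was at 21.5, 19.2, 22.9 and 22 CPM with control siRNA and at 22.4, 21.3, 18.7 and 23.3 CPM with CNOT1 siRNA. The polysomal means were 21.4 ± 1.56 and 21.4 ± 2 CPM (SD, n = 4), so that the lower polysomal share of JUND came with a higher subpolysomal level and not with a lower polysomal one. CPM are shares of each library, so absolute amounts per fraction are not known.

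The polysomal to subpolysomal ratio of each gradient, on the log2(CPM + 0.5) scale, restates these CPM values. It takes libraries of the same number as 1 gradient. Such libraries did not deviate together, with correlations of -0.44 to 0.185 for control siRNA and -0.233 to -0.118 for CNOT1 siRNA. For JUND the ratio was 0.34, -0.19, -0.57 and -0.51 with control siRNA and -1.23, -1.57, -2.19 and -1.65 with CNOT1 siRNA. All CNOT1 siRNA gradients were below all control gradients, at means of -1.66 ± 0.40 and -0.23 ± 0.42 (SD, n = 4), while the median over all genes was -0.11 to 0.02 in every gradient. The shift of JUND, the CNOT1 siRNA effect in polysomal minus that in subpolysomal RNA, was -1.41 (SE 0.25), -1.32 without the conflicting libraries, and -1.57 to -1.25 without any 1 library.

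EGR1, FOS and IER3 had shifts that depended on the conflicting libraries. For EGR1 the ratio was -1.44, -1.32 and -1.34 in control gradients 1, 2 and 4 and 0.11, -0.04 and -0.39 in the same CNOT1 siRNA gradients, but 3.08 and -3.82 in those labelled 3. The EGR1 shift was -2.71 (SE 1.2) with all libraries and 0.48 (SE 0.85) without both polysomal libraries labelled replicate 3. Without them, the mean ratio went from -1.16 ± 0.34 to -0.20 ± 0.13 for FOS (SD, n = 3), from -1.18 ± 0.69 to -0.01 ± 0.29 for IER3 and from 0.40 ± 0.31 to 0.99 ± 0.15 for MYC, upward in each, and from -0.12 ± 0.43 to -1.48 ± 0.22 for JUND. The shifts of FOS, IER3 and MYC were -1.33, 0.24 and 0.13 with all libraries, and 0.78, 1.34 and 0.57 without. JUN, JUNB, IER2 and ATF3 had shifts of -0.45 to -0.04 with all libraries and of -0.14 to 0.28 without. Over all 16776 genes, edgeR called 0 in the polysomal CNOT1 siRNA comparison with all libraries (1123 at an unadjusted p below 0.05, and 0 by DESeq2), and 31.7% of 17115 genes without the conflicting ones.

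**Figure D4:**
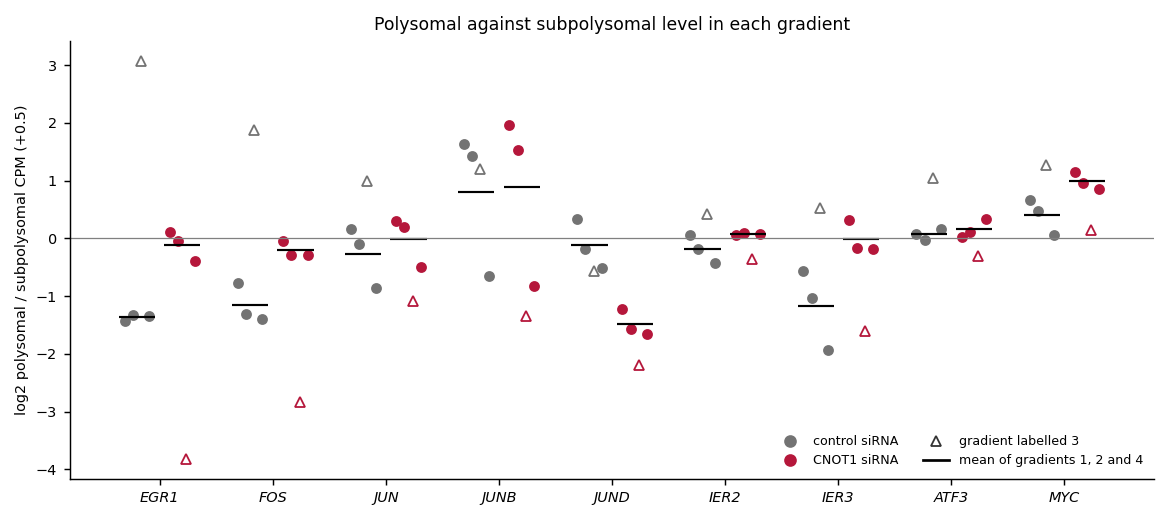
Log2 ratio of polysomal to subpolysomal CPM (y axis, pseudocount 0.5 CPM) of each member in each gradient with control siRNA (grey) or CNOT1 siRNA (red), with triangles for gradients labelled 3 and lines for the mean of gradients 1, 2 and 4. JUND alone among the members has all CNOT1 siRNA gradients below all control gradients, and EGR1 of the gradients labelled 3 lies at 3.08 and -3.82.

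With TNRC6A/B siRNA, which lowers the adaptors of Argonaute, edgeR called 0 of 9 members, and 0 of all 14064 genes (0%), with 289 genes (2.05%) and 0 members at an unadjusted p below 0.05. DESeq2 called 8 genes and 0 members, and the replicate number as a block called 763 genes and 2 members, EGR1 (0.82, FDR 0.012) and JUND (0.69, FDR 0.00896). EGR1 was at 2.73 and 4.31 CPM with control siRNA and at 3.73 and 9.61 CPM with TNRC6A/B siRNA, which overlap (log2 difference 0.92, SE 0.57, FDR 1). JUND was at 18.9 and 7.94 CPM and at 27.8 and 14.4 CPM, also overlapping (0.65, SE 0.55, FDR 1). Both were higher at each replicate number, and with 2 pairs it is not known whether the numbers pair the libraries. The other 7 members had log2 differences from -0.28 for JUNB, counted 4 to 35 times per library, to 0.21 for IER2. IER2 was at 20.6 and 16 CPM with control siRNA and at 21 and 21.3 CPM with TNRC6A/B siRNA. IER3 was at 1.98 and 1.81 CPM against 1.79 and 1.71 CPM, and neither passed the test.

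Of the other immediate early genes 39 were tested in the IPs, and the eIF4A1 IP had 16 higher and 4 lower (26.1% and 26.5% of all genes), the eIF4A2 IP 14 and 3 (24.5% and 25.8%) and the DDX6 IP 9 and 1 (22.7% and 23.3%), or 15 and 5 under the block (29.6% and 30.4%). The count higher in the DDX6 IP is near the share of all genes. The medians were 0.39, 0.37 and 0.28. NR4A1, an orphan nuclear receptor, went from 11.5 ± 1.16 CPM in total RNA (SD, n = 3) to 37 ± 3.43, 41.5 ± 10.3 and 35.4 ± 4.42 CPM, or by 1.69, 1.85 and 1.62 on the log2 scale (FDR 1.02e-05, 4.43e-06 and 2.79e-05). DUSP5, a phosphatase of ERK, rose in the 3 IPs by 1.43, 1.61 and 1.24, FOSL2, an AP-1 subunit, by 0.88 and 1.34 in the eIF4A1 and eIF4A2 IPs, and SRF, which drives EGR1 and FOS transcription, by 1.04 in the eIF4A1 IP. In control gradients 11 of 38 were higher and 8 lower in polysomal RNA, beside 34.8% and 37% of all genes. Without the conflicting libraries 9 were higher and 11 lower, beside 33.7% and 38.4% of all genes. With CNOT1 siRNA 7 of 38 were higher and 5 lower in input, where 13.4% and 15.6% of all genes were, and 18 and 5 without the conflicting libraries, which changes the shared spread (19.6% and 21.1% of all genes). With the block and only the input libraries, a fit chosen after seeing the data, 22 were higher and 7 lower, beside 33.4% and 32.9% of all genes. ARC went from 2.35 ± 0.42 to 12 ± 5.46 CPM (SD, n = 4; log2 difference 2.34, FDR 0.0126), BTG2, which binds the Ccr4-Not deadenylase, from 41.3 ± 3.9 to 89.3 ± 11.2 CPM (1.11, FDR 0.00673) and TRIB1 from 76.5 ± 5.76 to 162 ± 27.6 CPM (1.08, FDR 0.00828), whereas DUSP4 fell by 1.01 (FDR 0.00673). In subpolysomal RNA 3 were higher and 8 lower, beside 13% and 19.1% of all genes. With the block and only these libraries 7 were higher and 14 lower, beside 27% and 31.2%. In polysomal RNA 0 were higher and 0 lower, as for all genes (0%). Without the conflicting libraries 10 were higher and 4 lower there, beside 17.1% and 14.6% of all genes. TNRC6A/B siRNA gave 0 and 0 of 37.

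Among 23 partners of AP-1 and MYC, the eIF4A1 IP had 11 higher and 3 lower (26.1% and 26.5% of all genes), the eIF4A2 IP 8 and 3 (24.5% and 25.8%) and the DDX6 IP 10 and 2 (22.7% and 23.3%). Under the block 12, 10 and 11 were higher, beside 32.4%, 30.4% and 29.6% of all genes. In that fit 5, 5 and 4 were lower, beside 32%, 31.9% and 30.4% of all genes. MAFG, a small MAF protein, rose by 1.80, 1.98 and 1.63, and MYCL, a MYC paralogue, by 1.66, 2.34 and 1.25. MYCL was also higher in the eIF4A2 than in the eIF4A1 IP (0.68, FDR 0.0126), where MYC gave -0.08 (FDR 0.845). In control gradients 5 were higher and 7 lower in polysomal RNA (34.8% and 37% of all genes), with ATF4 lower by 1.46. Without the conflicting libraries 5 were higher and 8 lower (33.7% and 38.4%). CNOT1 siRNA gave 5 higher and 3 lower in input (13.4% and 15.6%) and 9 and 2 in subpolysomal RNA (13% and 19.1%). With the block and only the compared libraries these were 11 and 5 (33.4% and 32.9%), and 11 and 4 of 22 (27% and 31.2%). In subpolysomal RNA MAX, the dimer partner of MYC, was higher by 0.79 (FDR 3.44e-05). For the polysome shift, with all libraries, 1 partner was higher and 1 lower, beside 3.26% and 2.4% of all genes. These were MAF at 0.91 (FDR 0.0456) and MAX at -0.88 (FDR 0.0026). TNRC6A/B siRNA gave 0 and 0 of 22.

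Among 20 genes of upstream signalling, the eIF4A1 IP had 6 higher and 4 lower (26.1% and 26.5% of all genes), the eIF4A2 IP 6 and 4 (24.5% and 25.8%) and the DDX6 IP 7 and 3 (22.7% and 23.3%), or 8 and 5 under the block (29.6% and 30.4%). ELK1 and ELK3, the factors that act with SRF on EGR1 and FOS, were higher in each IP, by 0.88 to 1.30 on the log2 scale. In control gradients 11 were higher and 6 lower in polysomal RNA (34.8% and 37% of all genes), or 10 and 4 without the conflicting libraries (33.7% and 38.4%). CNOT1 siRNA gave 2 higher and 1 lower in input (13.4% and 15.6%), or 8 and 5 with the block and only these libraries (33.4% and 32.9%). It gave 8 and 1 in subpolysomal RNA (13% and 19.1%), or 10 and 3 in the same way (27% and 31.2%). ELK1 was higher there by 0.84 (FDR 2.35e-05), with a shift of -0.90 (FDR 0.00261). For the shift, with all libraries, 0 were higher and 3 lower, beside 3.26% and 2.4% of all genes. TNRC6A/B siRNA gave 0 and 0 of 20.

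AU-rich element binding proteins include factors that read ATTTA motifs, but not all of those listed here do. Among the 11 listed genes the eIF4A1 IP had 2 higher and 3 lower (26.1% and 26.5% of all genes). The eIF4A2 IP had 3 and 4 (24.5% and 25.8%), and the DDX6 IP 3 and 3 (22.7% and 23.3%). HNRNPD, also known as AUF1, fell by 1.19, 1.32 and 1.13 in the IPs, whereas RC3H2 rose by 0.61, 0.84 and 0.69. In polysomal RNA of control cells HNRNPD (2.05) and ELAVL1 (1.52) were higher, and ZFP36L1 (-1.11) and TIA1 (-0.75) were lower. Polysomal RNA had 3 higher and 5 lower in control cells (34.8% and 37% of all genes), or 4 and 5 without the conflicting libraries (33.7% and 38.4%). CNOT1 siRNA gave 1 higher and 2 lower both in input (13.4% and 15.6%) and in subpolysomal RNA (13% and 19.1%). With the block and only the compared libraries these were 3 and 6 (33.4% and 32.9%), and 3 and 4 (27% and 31.2%). TNRC6A/B siRNA gave 0 and 0 of 10.

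Over the means of the 12 groups, centred within each experiment, the genes most like EGR1 among 13981 were FOSB (Pearson's r = 0.938), ARC (0.908) and FOS (0.893), all immediate early genes. Those most like JUND were GAS2L1 (0.986), GNAZ (0.984) and ELMOD1 (0.981). EGR1 and JUND correlated at 0.60 with each other, JUND and JUNB at -0.19 and JUNB and MYC at 0.87. The groups share libraries, experiments and the conflicting polysomal libraries, so these values are descriptions.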

How the data were processed

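The authors aligned reads of poly(A)-selected, stranded HEK293 libraries to hg19 with TopHat2 and deposited raw counts per gene symbol made with htseq-count. Per the labels, bcl2fastq 2.0 was also used, and the strand option is not given in the sources used here. A further deposited table holds only the authors' comparisons of the IPs with total RNA (log2 fold change, mean log2 CPM, a likelihood ratio score, p-value and FDR) and was not used. Groups follow the labels.

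Members and gene lists were chosen with earlier results of these data known. edgeR 4.0.16 (R 4.3.3, limma 3.58.1) was fitted once per experiment: RIP (12 libraries, 17474 genes after filterByExpr), gradient (24, 16776) and TNRC6 (4, 14064). TMM factors, two-sided quasi-likelihood tests and Benjamini-Hochberg adjustment over all genes tested were used, with calls at FDR below 0.05. Fold changes are first group over second, and ratios used a pseudocount of 0.5 CPM. The fits were also run on simulated counts, drawn with no effect of the replicate number and no library against its label. The simulation therefore does not cover these features of the data.

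The genes named are the 9 members and CNOT1, TNRC6A and TNRC6B as checks. From 4 lists (other immediate early genes, AP-1 and MYC partners, upstream signalling genes, AU-rich element binding proteins) they are called genes with the greatest absolute change at a mean of at least 5 CPM, at most 4 per list and comparison, and the 3 genes most like EGR1 and JUND. Same-numbered RIP libraries deviated together in 18 of 18 pairs of groups (r from 0.184 to 0.782), so that the replicate number pairs them. RIP total RNA replicate 3 is numbered 3 in its title, used here, and 2 in its description, and it correlated at 0.311 to 0.59 with IP libraries numbered 3 and at -0.536 to -0.369 with those numbered 2. Control and CNOT1 siRNA libraries of the same number also deviated together, in input (4 of 4 numbers, r from 0.195 to 0.358) and in subpolysomal RNA (4 of 4, 0.586 to 0.736), but not in polysomal RNA (-0.562 to 0.102) or between control polysomal and subpolysomal RNA (-0.44 to 0.185). For the members, the blocked value is given where it changes a call. For the 4 gene lists, blocked counts are given in some comparisons only. Depth was 15.4 to 46 M counts per library. Counts carry no molecular identifiers, so precision from depth covers counting error only.

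Sequence features came from GENCODE release 44 lifted to GRCh37, the assembly of hg19, for the transcript with the longest coding sequence. Of 18018 genes tested in any experiment, 13827 had one, 832 of them through an older symbol. Coordinates are 1-based. DESeq2 1.42.0 was run as an alternative, as were RLE size factors, all genes with any count, only the compared libraries, the replicate number as a block, leaving out each library, the coding transcript with the longest 3′UTR, and leaving out both polysomal libraries labelled replicate 3. Chosen after seeing the data were the block together with the last, the block with only the compared libraries for CNOT1 siRNA in input and subpolysomal RNA, and the block without RIP total RNA replicate 3. Labels were never exchanged.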

Additional observations from a re-analysis of the deposited data

Results flagged for a closer look

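In 7 of 54 combinations of a member with a group of 4 libraries, 1 library lay far from the other 3 (its gap to the nearest, over the range of the group, exceeded Dixon's 95% critical value). That value is exceeded in about 1 in 20 groups of independent, normally distributed values. The members share their libraries, so the 54 combinations are not independent and are not compared with that rate. Of the 7, 6 were in libraries labelled replicate 3.

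EGR1 was at 109 CPM in CNOT1 siRNA input replicate 3, against 12.7 to 26.3 in the others, and at 113 CPM in CNOT1 siRNA subpolysomal replicate 3, against 17.2 to 29.5. In the control siRNA polysomal library labelled replicate 3, EGR1 was at 127 CPM (others 3.7 to 6.1), FOS at 17.8 CPM (1.2 to 1.77), IER3 at 13 CPM (2.54 to 3.78) and ATF3 at 129 CPM (70.1 to 78.3). This is the library whose CNOT1 level, 28.3 CPM, lay with the CNOT1 siRNA libraries. Exchanged labels for it and its CNOT1 siRNA counterpart were not tested. MYC was at 915 CPM in CNOT1 siRNA subpolysomal replicate 4, against 1090 to 1100 in the others.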

How the results depend on the processing

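Of 404 tested member values, 357 kept direction and call under alternatives other than leaving out 1 library, and 382 of 432 did when 1 library was left out. The cause of the changes was not tested. Against total RNA, JUN in the eIF4A1 IP was at 0.01 without the filter and with the replicate number as a block. The block without RIP total RNA replicate 3, chosen after seeing the data, put JUN at 0.11 in the eIF4A1 IP and gave 2 members lower in the eIF4A2 and 1 in the DDX6 IP. Members lower in the eIF4A2 IP became 1 with DESeq2, no filter, the block or only the compared libraries, and in the DDX6 IP 1 with the last 3, with 6 higher under the block. Between the eIF4A2 and eIF4A1 IPs 1 was lower with no filter or the block. Between the eIF4A2 and DDX6 IPs JUN was at -0.01 (no filter) and -0.06 (block), with 1 higher under the block, and 1 was higher between the DDX6 and eIF4A1 IPs under the block.

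In control gradients 4 members were higher in polysomal RNA without the filter, FOS was at -0.14 and IER2 at -0.02 under the block, and IER2 at -0.08 with only the compared libraries. Without both polysomal libraries labelled replicate 3, 3 were lower, and EGR1, FOS, JUN and IER2 were at -1.48, -1.40, -0.19 and -0.23. Leaving these out with the block, chosen after seeing the data, also gave 3 lower, with values of -1.16, -1.17, -0.22 and -0.15. The block over all 24 gradient libraries rests on 60 same-numbered pairs of groups, of which 33 were above 0.1. Numbers paired the libraries of the CNOT1 siRNA contrasts in input and subpolysomal RNA, and not the other 2 contrasts used, polysomal RNA between siRNAs and control polysomal against subpolysomal RNA. With the block and only the compared libraries, EGR1 was at 2.62 and JUNB at 1.29 in input. In the TNRC6 experiment (2 pairs, r = 0.862) the numbers are shared only as numbers, and the block called 2 members higher, EGR1 (0.82, FDR 0.012) and JUND (0.69, FDR 0.00896). The block over all libraries of an experiment changed no other tested call of a member in these 2 experiments. The JUND shift was -1.50 to -1.32 under all these alternatives.

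Leaving out 1 library gave 3 to 6 members higher in the eIF4A1 IP, 0 to 1 lower in the eIF4A2 IP, 0 to 1 lower between the eIF4A2 and DDX6 IPs, and 1 to 2 higher and 0 to 3 lower in polysomal RNA. Log2 ranges that changed sign were -0.17 to 0.08 (JUN) and -0.66 to 0.05 (JUNB) in the eIF4A1 IP and -0.50 to 0.16 (JUN) in the eIF4A2 IP. Between the eIF4A2 and eIF4A1 IPs they were -0.17 to 0.30 (EGR1), -0.48 to 0.18 (JUN), -0.25 to 0.08 (IER2) and -0.17 to 0.07 (MYC). Between the eIF4A2 and DDX6 IPs they were -0.07 to 0.40 (EGR1), -0.28 to 0.39 (JUN), -0.52 to 0.01 (JUNB) and -0.10 to 0.47 (JUND), and between the DDX6 and eIF4A1 IPs -0.39 to 0.01 (FOS) and -0.27 to 0.08 (ATF3). Polysomal against subpolysomal, they were -1.49 to 1.81 (EGR1), -1.40 to 0.76 (FOS), -0.19 to 0.42 (JUN) and -0.23 to 0.13 (IER2). With TNRC6A/B siRNA they were -1.22 to 0.55 (FOS), -0.24 to 0.64 (JUN), -2.01 to 0.44 (JUNB), -0.30 to 0.05 (ATF3) and -0.51 to 0.18 (MYC), where the lone library left is assumed to vary like the other group.

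Over all genes, calls higher and lower between the eIF4A2 and eIF4A1 IPs were 170 and 15, against 541 and 159 with DESeq2, 459 and 538 without the filter, 1245 and 1521 under the block and 24 and 0 with only the compared libraries. Between the DDX6 and eIF4A1 IPs, 14 and 2 became 359 and 182, 130 and 102, 1062 and 668, and 0 and 0. Between the eIF4A2 and DDX6 IPs, 1716 and 1969 became 3232 and 3842 under the block. With TNRC6A/B siRNA, 0 and 0 became 6 and 2 with DESeq2, 20 and 3 without the filter and 520 and 243 under the block. With the coding transcript of the longest 3′UTR, the ATTTA counts of all 9 members were the same. Counts were lowest for JUNB and FOS, at 4 and 13 in a TNRC6A/B siRNA library.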
